A study of Mus musculus with 16 samples.

Results

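The EGF receptor family and its ligands are represented here by 10 genes chosen by symbol: the receptors Egfr, Erbb2 and Erbb3, the EGF receptor ligands Areg, Ereg, Hbegf, Tgfa, Btc and Epgn, and the neuregulin gene Nrg1. They are 10 of the 49315 genes in the count table and 10 of the 15993 that passed a filter on low counts. The cells were primary murine tracheal epithelial cells (MTECs), airway lining cells that are grown and differentiated with their upper surface in air. Cultures from male and female wild-type (WT) or LMAN1 knockout (KO) littermates on a C57BL/6J background were left untreated (naive) or were given house dust mite (HDM) extract at 20 µg/ml overnight, which gives 8 groups of 2 biological replicates and 16 RNA sequencing libraries. LMAN1 is a cargo receptor that carries glycoproteins out of the endoplasmic reticulum, and HDM is a common airborne allergen. For these cultures 3 tracheas were pooled for each 2 conditions, and the inserts carried basement membrane made by 3T3 cells, a mouse fibroblast line. The comparisons ask how sex, the LMAN1 genotype and HDM bear on the transcripts of this family.

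The family works as a relay at the cell surface. The EGF receptor (the product of Egfr), ErbB2 and ErbB3 are receptors that pair with one another once a ligand is bound. ErbB2 has no known ligand and serves as the preferred partner, whereas ErbB3 has little kinase activity of its own and binds neuregulins. The ligands are made as membrane-anchored precursors, from which proteases such as ADAM17 release the soluble factor. In airway epithelium this system is known for its part in wound repair, mucous cell differentiation and the response to allergens, and the EGF receptor drives transcription of several of its own ligands and inhibitors.

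Of the 10 genes, Epgn, Ereg, Areg and Btc lie next to one another on mouse chromosome 5 (GRCm38), in a stretch of 376 kb from position 91027464 to 91402994 that holds no other annotated protein-coding gene. Egfr and Erbb2 lie on chromosome 11, Erbb3 on chromosome 10, Tgfa on chromosome 6, Nrg1 on chromosome 8 and Hbegf on chromosome 18. Exons of 4 of the genes overlap a gene on the other strand, by 9 bases for Erbb2 with Mien1, 141 bases for Ereg with Gm19610, 118 bases for Tgfa with Gm43917 and 482 bases for Nrg1 with Gm26578. Whether reads were counted by strand is not given in the sources used here, so reads in those bases could not be assigned.

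The RefSeq promoter table (GRCm38) held 6 of the 10 genes: Egfr, Erbb2, Areg, Tgfa, Btc and Epgn. The stretch just before the gene start is shown for 4 of them, because Egfr and Tgfa were higher and Erbb2 was lower in HDM-treated female cultures, and because Areg varied most between libraries among the genes with counts above 20. Capitals mark the letters of a searched motif. The motifs were the cyclic AMP response element TGACGTCA, the AP-1 site TGANTCA, the TEAD site GGAATG and the TATA box TATAAA, read on both strands.

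Areg, chr5:91139349-91139598, plus strand: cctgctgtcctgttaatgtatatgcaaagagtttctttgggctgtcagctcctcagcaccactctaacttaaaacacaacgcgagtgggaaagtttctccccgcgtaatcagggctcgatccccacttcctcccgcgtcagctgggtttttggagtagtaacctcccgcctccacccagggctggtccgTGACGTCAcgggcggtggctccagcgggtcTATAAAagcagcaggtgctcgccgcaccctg
Tgfa, chr6:86194972-86195221, plus strand: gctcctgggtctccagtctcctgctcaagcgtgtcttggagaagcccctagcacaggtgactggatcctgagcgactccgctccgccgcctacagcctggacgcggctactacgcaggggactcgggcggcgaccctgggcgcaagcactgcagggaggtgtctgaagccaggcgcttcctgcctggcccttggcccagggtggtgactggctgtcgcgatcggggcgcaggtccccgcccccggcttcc
Egfr, chr11:16751953-16752202, plus strand: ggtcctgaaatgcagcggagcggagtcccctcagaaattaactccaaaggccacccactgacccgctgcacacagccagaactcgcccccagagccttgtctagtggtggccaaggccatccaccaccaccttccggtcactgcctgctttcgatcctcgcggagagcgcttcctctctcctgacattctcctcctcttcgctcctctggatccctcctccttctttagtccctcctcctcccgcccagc
Erbb2, chr11:98412234-98412469, plus strand: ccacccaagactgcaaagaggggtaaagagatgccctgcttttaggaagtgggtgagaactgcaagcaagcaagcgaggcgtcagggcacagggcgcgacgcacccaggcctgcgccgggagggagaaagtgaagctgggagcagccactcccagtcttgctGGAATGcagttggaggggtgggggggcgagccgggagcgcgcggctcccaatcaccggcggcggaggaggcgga

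The Areg window held one cyclic AMP response element and one TATA box, letters that were found in 1.55% and 12.4% of the 32851 promoters of the table. The Erbb2 window held the TEAD letters, which were in 12.6% of promoters. None of the 4 motifs was in the windows of Egfr, Tgfa or Btc, the Epgn window held a TATA box, and the AP-1 letters, present in 6.75% of promoters, were in none of the 6. These are matches of letters and no binding was measured.

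Counts per library totalled 21860698 to 43442188, and levels are given as CPM, counts scaled to a common library total, after TMM scaling, which corrects for libraries in which a few genes take a large share. Lman1 itself lay between 101.3 and 144.1 CPM in the 8 WT libraries. It was lower in every library labelled KO but was not absent: 3 of the naive KO libraries had 12.79, 12.79 and 14.17 CPM, while male KO naive replicate 2 and the 4 KO HDM libraries had 63.43 to 78.08 CPM, up to 64.8% of the WT mean. KO therefore stands for the label throughout, and all KO HDM libraries belonged to the higher set. Cell type markers differed between groups too. In female WT HDM cultures, 7 of 7 club cell and 4 of 4 tested goblet cell markers were lower than in naive cultures. So were 5 of 8 basal cell, 5 of 8 ciliated cell and 3 of 6 tested leukocyte markers. Of 8 tested squamous and stress keratin genes 3 were lower and 1 was higher, and 3 of 9 fibroblast markers were higher. In that comparison 22.4% of all tested genes were lower and 20.6% higher, at an edgeR adjusted p under 0.05. Scgb1a1, a defining club cell gene, reached at most 3.75 CPM in any library, so the cultures showed little of that marker.

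Per kilobase of exon, the scale on which levels of different genes can be compared, the receptors Erbb2 and Erbb3 had the highest means over all 16 libraries, but not in every group. Erbb2 averaged 45.7 CPM per kb and Erbb3 25.6 CPM per kb. Areg, the gene for amphiregulin, followed at 13.1 CPM per kb, with Egfr at 8.18, Hbegf at 6.67, Tgfa at 4.93, Ereg at 3.90, Nrg1 at 3.00 and Btc at 1.65 CPM per kb. Epgn, which encodes epigen, averaged 0.134 CPM per kb and had 0 to 20 counts per library. Each neighbouring pair from Erbb3 down to Btc overlapped in its range over libraries, and Erbb2 (21.2 to 59.2 CPM per kb) overlapped Erbb3 (14.0 to 29.3) only through the female WT HDM libraries. In female WT HDM cultures Areg had the highest mean, at 27.6 CPM per kb against 24.6 for Erbb2 and 16.7 for Erbb3. The Areg libraries there, at 29.15 and 26.08 CPM per kb, overlapped those of Erbb2, at 28.0 and 21.15.

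The genes differed in how far they varied. The highest library exceeded the lowest 12.1-fold for Areg, 7.21-fold for Ereg, 4.80-fold for Hbegf and 3.08-fold for Nrg1, against 2.80-fold for Erbb2, 2.09-fold for Erbb3, 1.76-fold for Tgfa, 1.70-fold for Btc and 1.45-fold for Egfr. A test for any difference among the 8 groups (edgeR's quasi-likelihood test, Benjamini-Hochberg adjusted p under 0.05, as for every call that follows) called 8 of the 10 genes, where 41.9% of all tested genes were called. Btc (edgeR adjusted p = 0.315) and Epgn (edgeR adjusted p = 0.0772) were not called.

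**Figure D1:**
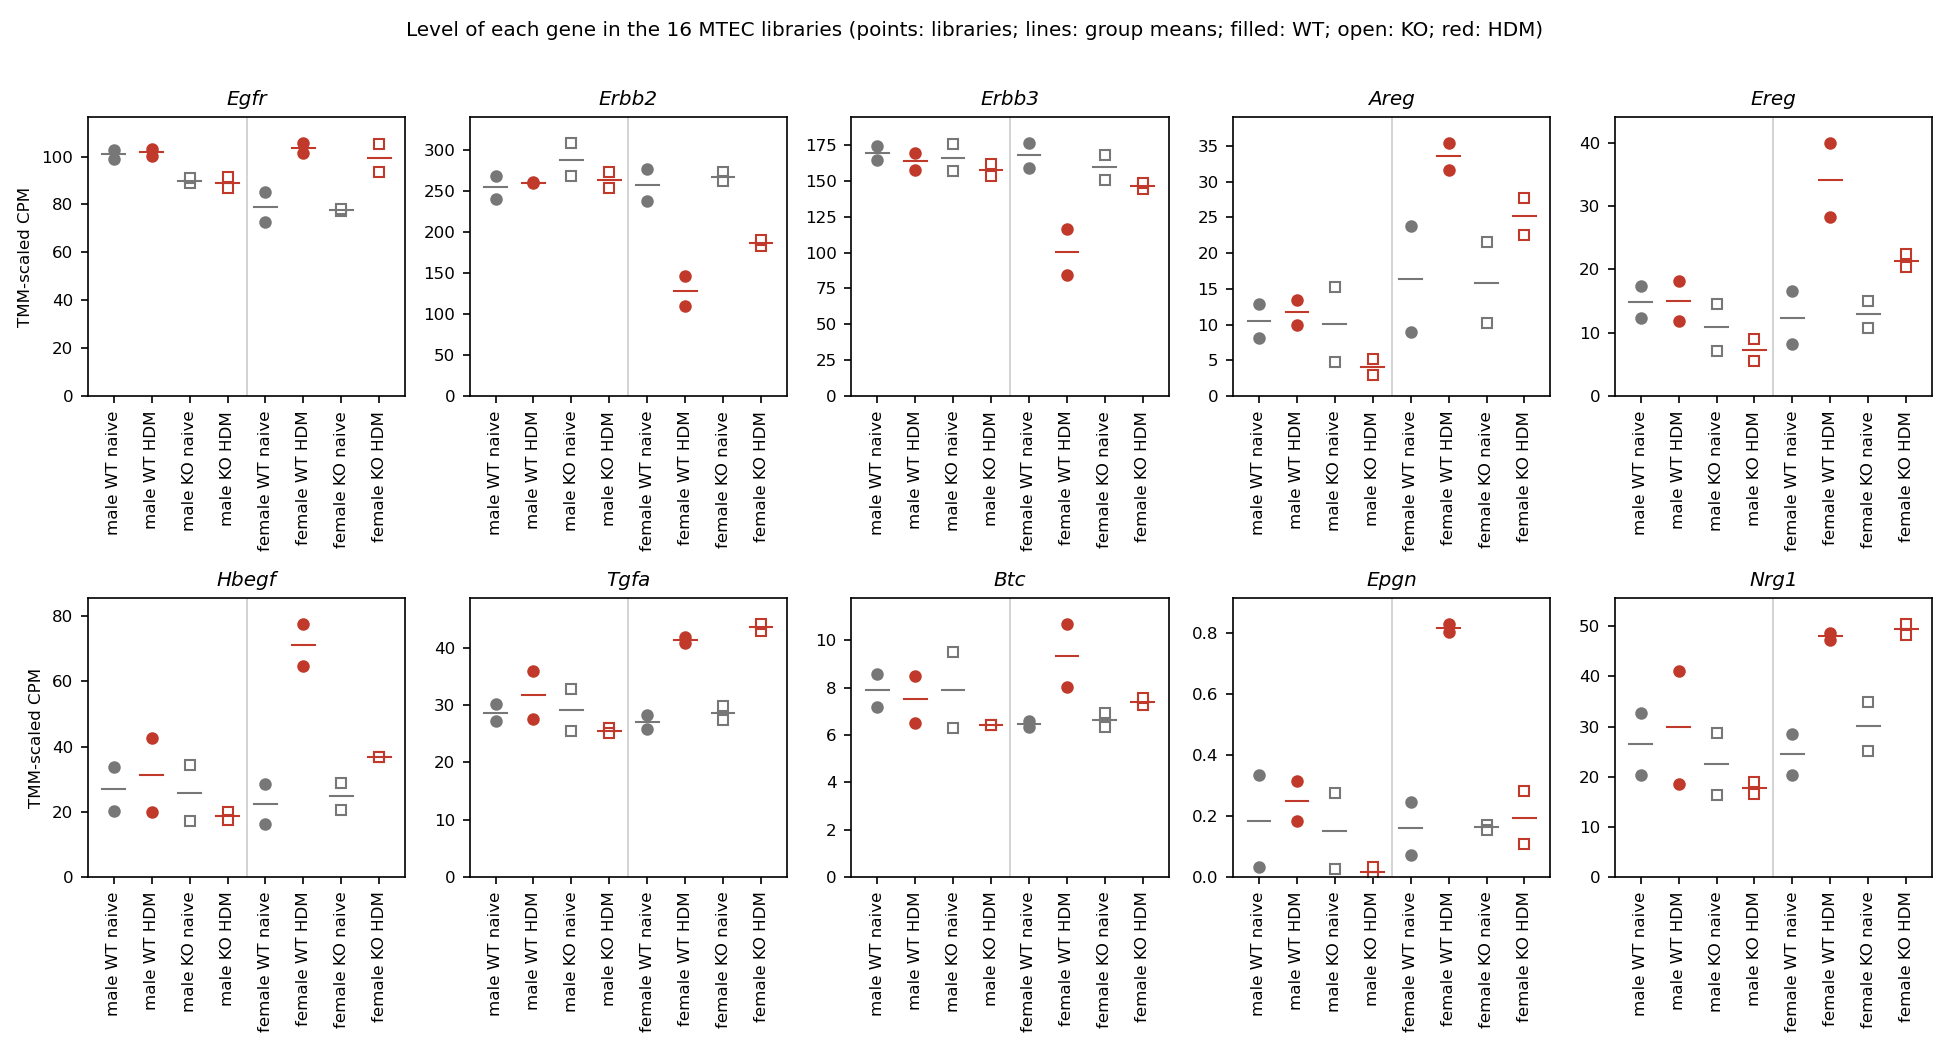
TMM-scaled CPM of each of the 10 genes in the 16 MTEC libraries, by group, with each axis starting at 0. Points are libraries, lines are means of 2 libraries, filled symbols are WT, open symbols are KO and red symbols are HDM-treated. In the female HDM groups Erbb2 was below its level in all 12 other libraries, at 110 to 190 CPM, and Tgfa was above it, at 40.8 to 44.3 CPM.

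The receptors responded to HDM in opposite directions in female WT cultures. Erbb2 read 277 and 238 CPM in the naive libraries and 146 and 110 CPM after HDM, a 2.01-fold decrease (log2 fold change -1.01, SE 0.13, edgeR adjusted p = 8.67e-05). The groups did not overlap, and the HDM values were the lowest of all 16 libraries. Erbb3 read 176 and 159 CPM in naive and 116 and 84.3 CPM in HDM-treated female WT cultures, a 1.67-fold decrease (log2 fold change -0.74, SE 0.13, edgeR adjusted p = 0.000692). Egfr, in contrast, rose from 72.7 and 85.1 CPM to 102 and 106 CPM (1.31-fold, log2 fold change 0.39, SE 0.08, edgeR adjusted p = 0.00215). These 3 calls held when each of the 16 libraries was left out in turn, in a comparison that called 43.1% of all tested genes.

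In female KO cultures the same direction was called for 2 of the 3 receptors, where 10.4% of all tested genes were called. Erbb2 read 273 and 262 CPM in naive and 183 and 190 CPM in HDM-treated libraries, a 1.43-fold decrease (log2 fold change -0.52, SE 0.12, edgeR adjusted p = 0.0228). Egfr read 77.4 and 78.2 CPM and then 93.4 and 105 CPM, a 1.28-fold increase (log2 fold change 0.35, SE 0.08, edgeR adjusted p = 0.0169). Erbb3 read 168 and 150 CPM against 145 and 148 CPM, which missed the threshold (log2 fold change -0.12, SE 0.12, edgeR adjusted p = 0.597). The call of Erbb2 was lost without any 1 of the 4 libraries of the comparison, at log2 fold changes of -0.49 to -0.55 (edgeR adjusted p = 0.0762 to 0.147), and that of Egfr remained only without female KO HDM replicate 1.

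As shares of the summed receptor level per kilobase, the receptors shifted towards Egfr in HDM-treated female cultures. Egfr made up 15.9% and 21% of that sum in the female WT HDM libraries and 12.2% and 13.2% in female KO HDM, against 7.22% to 10.7% in the other 12 libraries. A share also rises when the other receptors fall. Egfr itself averaged 9.15 and 8.77 CPM per kb in female WT HDM and female KO HDM, against 8.91 and 8.99 in male WT naive and HDM cultures. Erbb2 made up 47.5% to 49.8% in female WT HDM and 51.9% to 52.1% in female KO HDM, against 56.1% to 61.4% elsewhere. The share of Erbb3 was 31.5% to 34.3% in female WT HDM and 35.0% to 35.7% in female KO HDM, against 30.2% to 33.3% elsewhere. Erbb4, which encodes the remaining receptor of the family, was left out because it had at most 11 counts in any library and did not pass the filter.

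**Figure D2:**
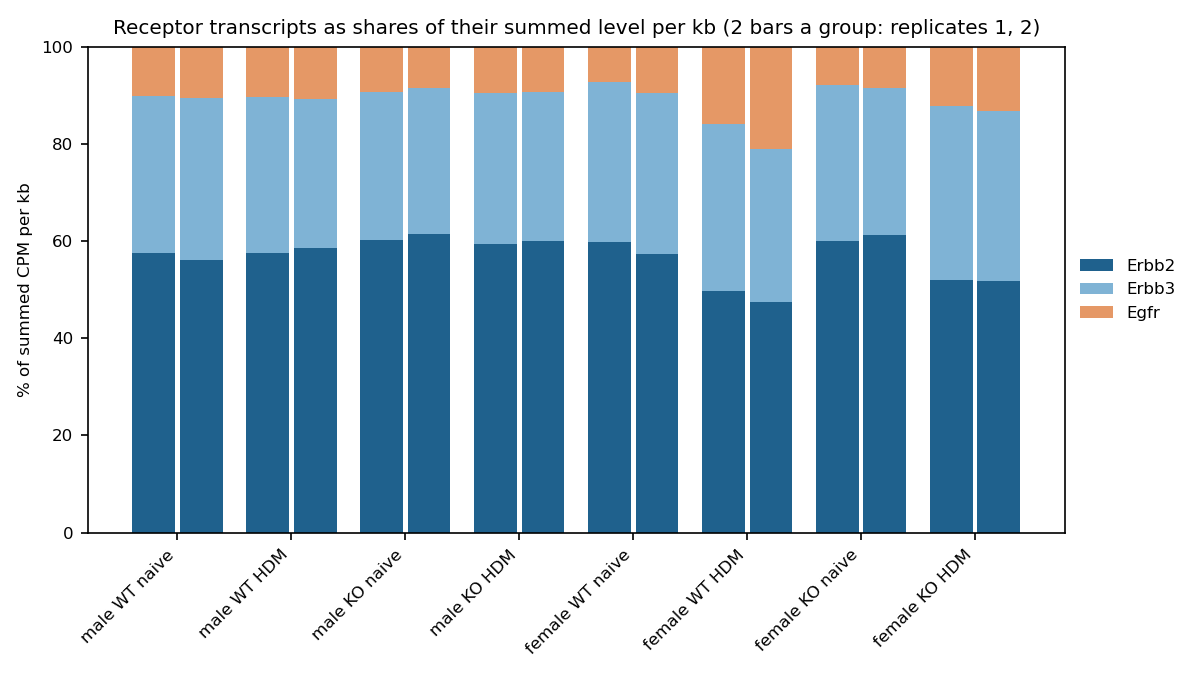
Share of Erbb2, Erbb3 and Egfr in their summed CPM per kilobase of exon, in percent, with one bar per library and 2 bars per group in the order replicate 1, replicate 2. The Egfr part is widest in the female WT HDM bars, at 15.9% and 21%.

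Of the ligands that bind the EGF receptor, Ereg, Hbegf and Tgfa were higher with HDM in female WT cultures. Hbegf, which encodes heparin-binding EGF-like growth factor, had the largest fold among the called genes: it read 16.2 and 28.4 CPM in naive and 64.7 and 77.8 CPM in HDM-treated libraries (3.18-fold, log2 fold change 1.67, SE 0.41, edgeR adjusted p = 0.00656). Ereg, the epiregulin gene, read 8.17 and 16.5 CPM and then 28.3 and 39.97 CPM (2.74-fold, log2 fold change 1.45, SE 0.40, edgeR adjusted p = 0.0124). The replicates of each group lay up to 2.02-fold apart for these genes, yet the groups did not overlap. Tgfa, which encodes transforming growth factor alpha, was steadier, at 25.9 and 28.3 CPM in naive and 41.9 and 40.8 CPM in HDM-treated libraries (1.53-fold, log2 fold change 0.61, SE 0.13, edgeR adjusted p = 0.00349).

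The neuregulin gene Nrg1, whose product binds ErbB3, read 20.4 and 28.5 CPM in naive and 48.7 and 47.2 CPM in HDM-treated female WT cultures (1.96-fold, log2 fold change 0.97, SE 0.36, edgeR adjusted p = 0.0476). This call was close to the threshold, and with scaling by library size only its edgeR adjusted p was 0.055. Areg, the amphiregulin gene, read 9.05 and 23.8 CPM in naive and 35.4 and 31.7 CPM in HDM-treated female WT libraries. The groups did not overlap, but the naive replicates lay 2.63-fold apart and the difference was not called (log2 fold change 1.02, SE 0.54, edgeR adjusted p = 0.151). Btc, the betacellulin gene (6.32 and 6.59 CPM against 10.7 and 8.00 CPM, edgeR adjusted p = 0.058), and Epgn (2 and 11 counts against 20 and 17 counts, edgeR adjusted p = 0.0522) missed the threshold by less.

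In all, 7 of the 10 genes were called in female WT cultures, 5 higher and 2 lower. Of the 43.1% of all tested genes that were called in this comparison, the higher ones made up 20.6% of tested genes and the lower ones 22.4%. The median log2 fold change of the 10 genes was 0.79, against -0.02 over all tested genes. Without female WT naive replicate 1, the naive library with the lower ligand values, 4 genes (Egfr, Erbb2, Erbb3 and Tgfa) remained called. Ereg, at a log2 fold change of 1.04 (edgeR adjusted p = 0.107), Hbegf, at 1.32 (edgeR adjusted p = 0.0671), and Nrg1, at 0.75 (edgeR adjusted p = 0.243), were not. Without female WT HDM replicate 2 Ereg was also lost (log2 fold change 1.18, edgeR adjusted p = 0.0887). The call for Nrg1 was lost in 10 of the 16 fits that left out 1 library, among them those without each of the 4 female WT libraries (log2 fold change 0.75 to 1.23, edgeR adjusted p = 0.0654 to 0.243).

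Several other measures moved with the female WT HDM group. The summed level of 9 fibroblast markers was 3683 and 6832 CPM there, against 349 to 1592 CPM in the other groups, most of it from Fn1. The fibroblast genes Dcn and Lum read 45.9 and 28.0 CPM in female WT HDM replicate 2 but 2.25 and 1.04 CPM in replicate 1, and Col1a1 read 249 CPM in female WT naive replicate 2 but 9.12 CPM in replicate 1. The sum of 8 basal cell markers was 2385 and 4492 CPM against 6965 to 13320 CPM. The 7 club cell markers summed to 3767 to 4656 CPM against 7237 to 20320 CPM elsewhere. Mitochondrial transcripts took 2.04% and 2.5% of counts against 0.517% to 1.52% elsewhere. Leukocyte markers, 8 genes, summed to 109 to 115 CPM against 180 to 305 CPM (the lymphocyte genes Cd3e and Cd79a had at most 1 and 4 counts), and the 5 endothelial markers summed to at most 3.20 CPM in every library. Their part in the differences of the receptors and ligands was not tested, and in RNA from whole cultures fewer cells of a type cannot be told apart from less RNA per cell.

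In female KO cultures 3 of the 10 genes were called, 2 higher (Egfr and Tgfa) and 1 lower (Erbb2), against 4.63% higher and 5.77% lower among all tested genes. Tgfa read 27.5 and 29.9 CPM in naive and 43.01 and 44.3 CPM in HDM-treated libraries, with a log2 fold change of 0.60 (SE 0.13, edgeR adjusted p = 0.0156) close to the 0.61 of female WT. The other ligands were not called, with log2 fold changes of 0.58 for Hbegf, 0.73 for Ereg, 0.67 for Areg, 0.72 for Nrg1 and 0.16 for Btc. Hbegf, for example, read 20.6 and 29.0 CPM in naive and 36.9 and 37.0 CPM in HDM-treated libraries (edgeR adjusted p = 0.41). Epgn had 6 and 5 counts in naive and 7 and 3 counts in HDM-treated libraries. The call for Tgfa was lost without any 1 of the 4 libraries (log2 fold change 0.55 to 0.67, edgeR adjusted p = 0.0561 to 0.139). In the same comparison 5 of 7 club cell, 3 of 4 tested goblet cell and 2 of 8 ciliated cell markers were lower, the goblet sum went from 85.3 and 90.4 CPM to 11.7 and 12.1 CPM, and the mitochondrial share went from 0.517% and 0.535% to 1.36% and 1.39%. The part of these shifts in the 3 calls was not tested.

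In male cultures none of the 10 genes was called for HDM in either genotype, and 0.0% of all tested genes were called. At an unadjusted p under 0.05, edgeR gave 665 genes in male WT and 857 in male KO cultures and 0 of the 10 genes, and DESeq2 called 2 and 1 genes, again with 0 of the 10. Erbb2 read 269 and 240 CPM in naive and 261 and 260 CPM in HDM-treated male WT cultures, so the groups overlapped (log2 fold change 0.03, SE 0.12). In male KO cultures it read 268 and 309 CPM against 254 and 273 CPM (log2 fold change -0.13, SE 0.12). Hbegf read 33.7 and 20.4 CPM in naive and 42.8 and 19.9 CPM in HDM-treated male WT cultures, a pair of groups in which the replicates lay further apart than the group means.

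**Figure D3:**
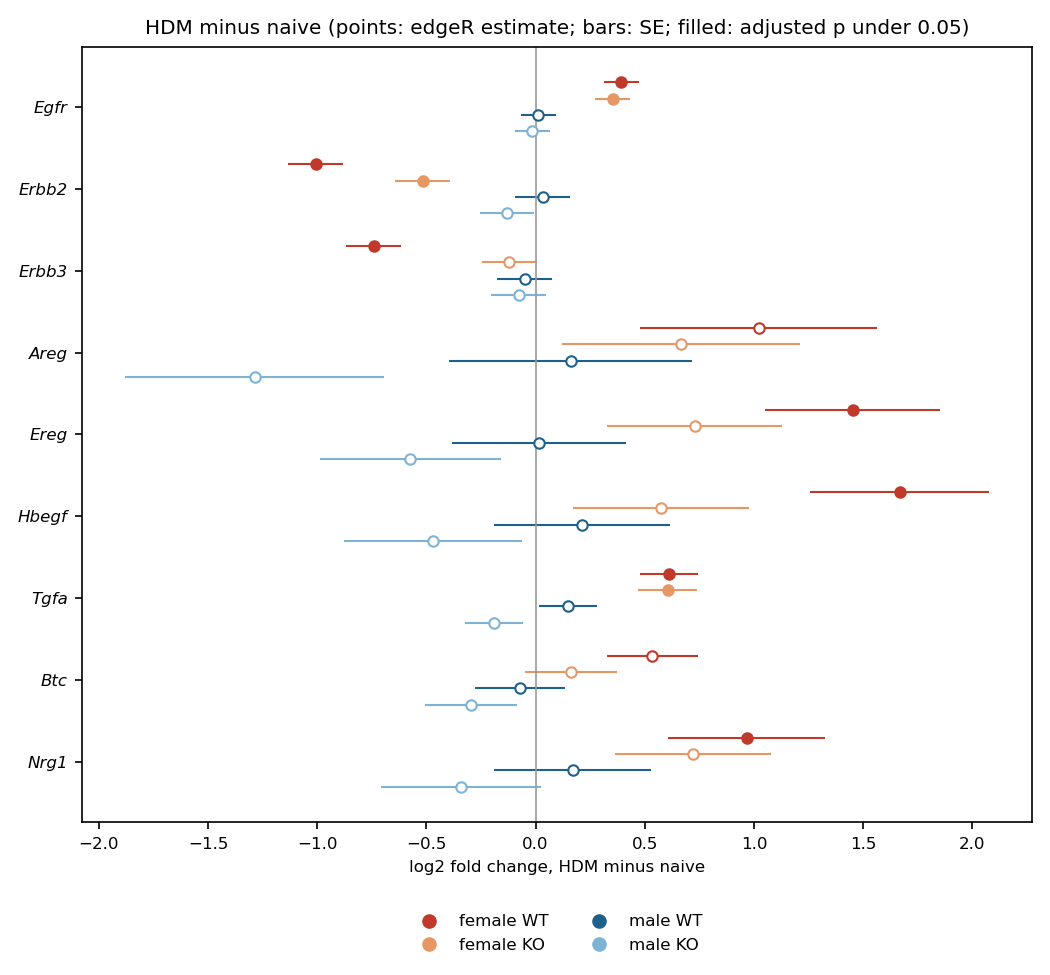
HDM response of 9 of the 10 genes (Epgn is left out because of its low counts) as the log2 fold change, HDM minus naive, in female WT, female KO, male WT and male KO cultures. Points are edgeR estimates, bars are 1 SE and filled points have an adjusted p under 0.05. Erbb2 lies at -1.01 in female WT and -0.52 in female KO cultures, and the male points are open throughout.

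Whether the HDM response differed by sex was tested directly as an interaction. In WT cultures 3 of the 10 genes were called (24.2% of all tested genes were). The response in female cultures exceeded that in male cultures by 0.38 for Egfr (SE 0.11, edgeR adjusted p = 0.0297) and fell below it for Erbb2 (-1.04, SE 0.18, edgeR adjusted p = 0.00176) and Erbb3 (-0.69, SE 0.18, edgeR adjusted p = 0.0156), all on the log2 scale. The ligands other than Epgn had differences of 0.46 (Tgfa) to 1.46 (Hbegf) that were not called, with edgeR adjusted p of 0.085 for both Ereg and Hbegf. In KO cultures Tgfa alone of the 10 was called (3.56% of all tested genes were), with a difference of 0.80 (SE 0.19, edgeR adjusted p = 0.0432). The call for Erbb2 held when each library was left out. That for Erbb3 was lost without male WT naive replicate 2 (-0.66, edgeR adjusted p = 0.0537) or female WT naive replicate 1 (-0.62, edgeR adjusted p = 0.0652), that for Egfr without 6 of the 8 WT libraries (0.27 to 0.40, edgeR adjusted p = 0.0567 to 0.133), and that for Tgfa without 13 of the 16 libraries (0.60 to 0.86, edgeR adjusted p = 0.0504 to 0.187).

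The same libraries can be read as a difference between the sexes. In naive cultures none of the 10 genes was called in WT (0.1% of all tested genes were) or in KO (0.188%). These shares depended on the test, as DESeq2 called 204 and 216 genes where edgeR called 16 and 30. Egfr read 103 and 98.9 CPM in male WT and 72.7 and 85.1 CPM in female WT naive libraries and did not overlap (log2 fold change, male minus female, 0.35, SE 0.08), but its edgeR adjusted p was 0.164, while DESeq2 called 1 of the 10 genes there. The ligands overlapped between male and female naive cultures in both genotypes, except Btc in WT, at 8.58 and 7.17 CPM in male and 6.32 and 6.59 CPM in female libraries (edgeR adjusted p = 0.605).

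In HDM-treated WT cultures 6 of the 10 genes differed by sex, 2 higher and 4 lower in male cultures (41.6% of all tested genes were called, 21.3% higher and 20.3% lower). Erbb2 read 261 and 260 CPM in male and 146 and 110 CPM in female libraries (2.03-fold, log2 fold change, male minus female, 1.02, SE 0.13, edgeR adjusted p = 7.99e-05). Erbb3 read 169 and 158 CPM in male and 116 and 84.3 CPM in female libraries (log2 fold change 0.71, SE 0.13, edgeR adjusted p = 0.00101). The receptor Egfr did not separate, at 100.4 and 103 CPM in male and 102 and 106 CPM in female libraries (edgeR adjusted p = 0.826).

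The 4 ligand genes lower in male WT HDM cultures were Areg, Ereg, Hbegf and Tgfa. Areg read 13.4 and 10.0 CPM in male and 35.4 and 31.7 CPM in female libraries (2.86-fold, log2 fold change -1.52, SE 0.56, edgeR adjusted p = 0.0459). The log2 fold changes of the others were -1.18 for Ereg (edgeR adjusted p = 0.0327), -1.18 for Hbegf (edgeR adjusted p = 0.034) and -0.38 for Tgfa (edgeR adjusted p = 0.0396). All 4 of these calls were lost without male WT HDM replicate 2, where they were -1.32, -0.90, -0.73 and -0.20 with edgeR adjusted p of 0.181 to 0.303, and the count of called genes fell from 6 to 2. It also fell to 2 without female WT HDM replicate 2 and to 3 without female WT HDM replicate 1, whereas Erbb2 and Erbb3 were called in each of these fits. Over all 16 fits that left out 1 library, Areg was lost in 8, Ereg in 2, Hbegf in 3 and Tgfa in 11.

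In HDM-treated KO cultures 5 of the 10 genes differed by sex, 1 higher and 4 lower in male cultures (25.3% of all tested genes were called, 12.9% higher and 12.4% lower). Areg read 5.24 and 2.92 CPM in male KO HDM, the group with its lowest mean, against 27.7 and 22.6 CPM in female KO HDM libraries (6.16-fold, log2 fold change -2.62, SE 0.60, edgeR adjusted p = 0.00826). Nrg1 read 19.0 and 16.5 CPM in male and 48.3 and 50.5 CPM in female libraries (2.79-fold, log2 fold change -1.48, SE 0.37, edgeR adjusted p = 0.0127). Ereg (log2 fold change -1.56, edgeR adjusted p = 0.0177), Tgfa (-0.77, edgeR adjusted p = 0.00189) and the receptor gene Erbb2 (0.50, edgeR adjusted p = 0.0137) were also called. The call for Tgfa held when each library was left out. Without male KO HDM replicate 2 it was the only one of the 5 that remained, 4 remained without male KO HDM replicate 1, 3 without female KO HDM replicate 1 and 2 without female KO HDM replicate 2. Beside these calls, 6 of 7 club cell and 3 of 4 tested goblet cell markers were higher in male KO HDM cultures and 6 of 8 tested squamous and stress keratin genes were lower (lowest summed level 939 CPM in male and 3665 CPM in female libraries), and the part of these shifts was not tested.

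**Figure D4:**
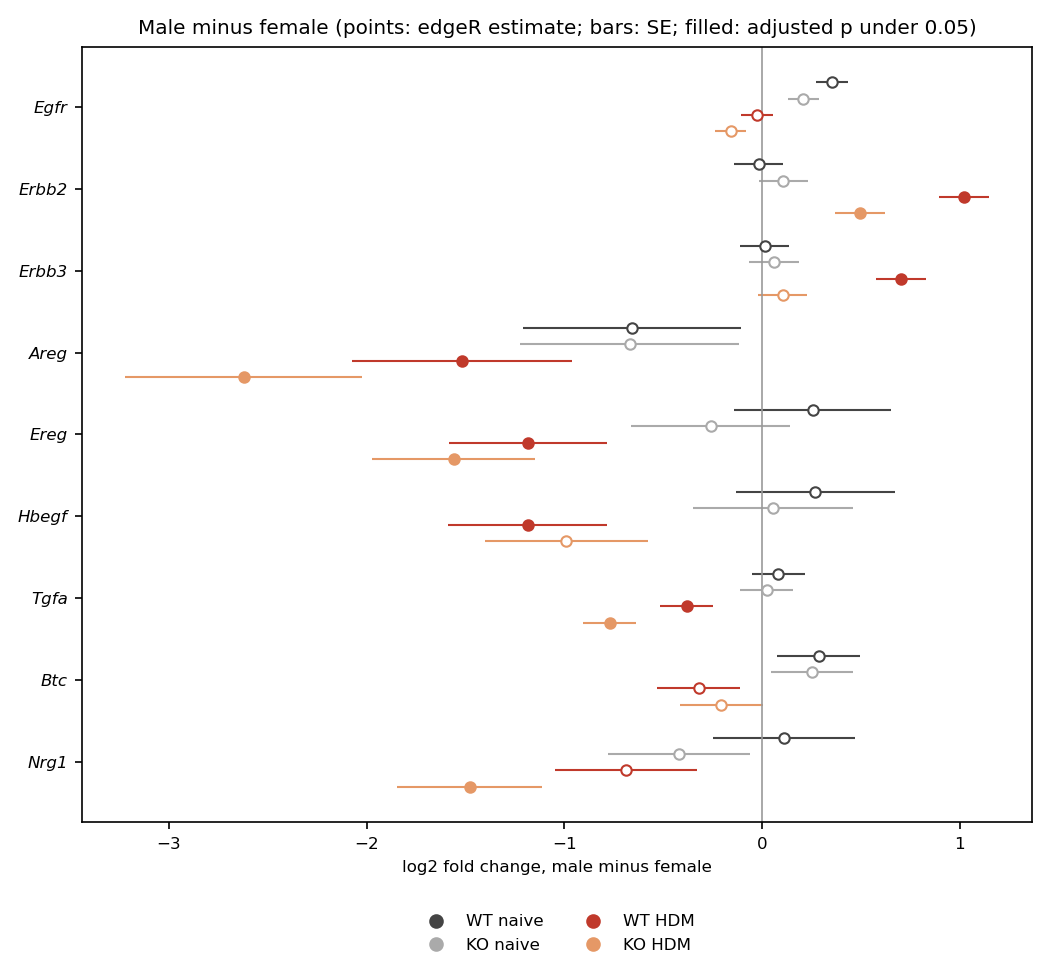
Difference between the sexes for 9 of the 10 genes as the log2 fold change, male minus female, in WT naive, KO naive, WT HDM and KO HDM cultures. Points are edgeR estimates, bars are 1 SE and filled points have an adjusted p under 0.05. The naive points are open for all 9 genes, and in WT HDM cultures Erbb2 lies at 1.02 and Areg at -1.52.

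The genotype comparisons asked what the KO label added within one sex and treatment. In HDM-treated female cultures 2 of the 10 genes, both receptors, were higher in KO than in WT libraries. Of all tested genes 29.2% were called, 14.9% higher and 14.3% lower, so the count for the 10 genes did not exceed that background. The WT libraries here are those of the HDM and sex comparisons above. Erbb2 read 183 and 190 CPM in KO and 146 and 110 CPM in WT libraries (1.46-fold, log2 fold change, KO minus WT, 0.54, SE 0.13, edgeR adjusted p = 0.00818). Erbb3 read 145 and 148 CPM in KO and 116 and 84.3 CPM in WT libraries (1.46-fold, log2 fold change 0.55, SE 0.13, edgeR adjusted p = 0.00818). Both calls were lost without female WT HDM replicate 2, at log2 fold changes of 0.36 (edgeR adjusted p = 0.0834) and 0.34 (edgeR adjusted p = 0.0679), and without female KO HDM replicate 2 (edgeR adjusted p = 0.0567 and 0.0538). Lman1 in these KO libraries was 66.62 and 78.08 CPM.

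Ligand values in HDM-treated female cultures were lower in KO than in WT for Hbegf (36.9 and 37.0 CPM against 64.7 and 77.8 CPM, edgeR adjusted p = 0.097) and Ereg (20.4 and 22.4 CPM against 28.3 and 39.97 CPM, edgeR adjusted p = 0.222), neither of which was called. Areg, Btc and the low-count Epgn were also lower, at log2 fold changes of -0.42, -0.34 and -2.07, and were not called. Their edgeR adjusted p were 0.593, 0.251 and 0.0964. Tgfa and Nrg1 had log2 fold changes of 0.08 and 0.04. The test of whether the HDM response differed by genotype called Erbb3 in female cultures (11.2% of all tested genes were called), where the response in KO exceeded that in WT by 0.62 on the log2 scale (SE 0.18, edgeR adjusted p = 0.0451). That call was lost in 12 of the 16 fits that each left out 1 library (0.41 to 0.71, edgeR adjusted p = 0.0501 to 0.164). Erbb2 had a difference of 0.49 in that test and was not called (edgeR adjusted p = 0.0949).

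The other 3 genotype comparisons, in female naive, male naive and male HDM cultures, called none of the 10 genes and 0.0% of all tested genes, as did the test of the genotype difference in the male HDM response. At an unadjusted p under 0.05, edgeR gave 203, 867 and 2897 genes in those 3 comparisons, with 0, 0 and 5 of the 10, and DESeq2 called 1, 1 and 562 genes, with 0 of the 10 in each. In male HDM cultures Areg read 5.24 and 2.92 CPM in KO and 13.4 and 10.0 CPM in WT libraries (log2 fold change -1.52, SE 0.59, edgeR adjusted p = 0.221). Epgn had 0 and 1 counts in male KO HDM libraries and 10 and 6 counts in male WT HDM libraries.

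Ligands often differed in the same direction between replicates of a group. Of Areg, Ereg, Hbegf, Tgfa, Btc and Nrg1, all 6 were higher in replicate 1 than in replicate 2 in male WT naive, male WT HDM and male KO naive cultures, and all 6 were higher in replicate 2 in female WT naive cultures. In male KO HDM 5 were higher in replicate 1 and 1 in replicate 2, in female KO naive and in female KO HDM 1 and 5, and in female WT HDM 4 and 2. The gap was largest for Areg in male KO naive, at 15.3 and 4.78 CPM or 3.19-fold. The widest gap of a receptor was 1.38-fold, for Erbb3 in female WT HDM, at 116 and 84.3 CPM. In that group the gaps of Erbb2 (1.32-fold) and Erbb3 exceeded those of Areg (1.12-fold), Hbegf (1.20-fold), Tgfa and Nrg1 (both 1.03-fold). The gap of Ereg (1.41-fold) exceeded those of both receptors there, and that of Btc (1.34-fold) exceeded that of Erbb2. In comparisons of 2 groups, the tests of Areg, Ereg, Hbegf and Nrg1 had larger errors than those of the receptors. Their SEs were 0.35 to 0.60, against 0.08 to 0.13 for Egfr, Erbb2 and Erbb3. The SEs of Btc were near 0.21, and those of Tgfa, near 0.13, were close to those of Erbb2 and Erbb3.

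The other ligands and receptors of the family were scarce except Nrg2, the gene for neuregulin 2. Nrg2 read 7.48 and 8.05 CPM in naive and 1.54 and 0.947 CPM in HDM-treated female WT cultures, a 6.19-fold decrease (log2 fold change -2.63, SE 0.41, edgeR adjusted p = 0.000413) opposite to that of Nrg1. In female KO cultures its log2 fold change was -0.29 (edgeR adjusted p = 0.66). Egf, the gene for epidermal growth factor, had 3 to 31 counts and Nrg4 9 to 22 counts per library, and neither was called in any of the 4 HDM comparisons. Erbb4 did not pass the filter, and Nrg3 had no count in any library, below a floor of 3 counts.

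Genes that act on the ligands were read from a list of 10 proteases, their cofactors and an inhibitor. Of these, 6 rose and 0 fell with HDM in female WT cultures, where 20.6% of all tested genes were called higher and 22.4% lower. The median log2 fold change was 0.44 against -0.02 over all tested genes. In female KO cultures 0 were called, where 10.4% of all tested genes were. One of the 6 was the inhibitor gene Timp3, named here after its values were seen, which read 164 and 197 CPM in naive and 346 and 377 CPM in HDM-treated female WT libraries (log2 fold change 1, edgeR adjusted p = 0.00251). The 3 with the smallest p were Frmd8 and Rhbdf2, which encode partners of ADAM17, and the protease gene Adam15. Frmd8 read 79.5 and 82.0 CPM in naive and 112 and 121 CPM in HDM-treated female WT libraries (log2 fold change 0.53, edgeR adjusted p = 0.00016). The log2 fold changes of Rhbdf2 and Adam15 were 0.60 and 0.54. Adam17 itself, the main sheddase of these ligands and named here after its values were seen, read 126.4 and 126 CPM in naive and 125 and 115 CPM in HDM-treated libraries and was not called.

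Downstream, a list of 22 genes of the Ras-ERK and PI3K relay had 7 higher and 6 lower with HDM in female WT cultures. The median log2 fold change was 0.04, and 2 were higher and 1 lower in female KO cultures. Of all tested genes, 43.1% were called in female WT and 10.4% in female KO cultures. Stat3, which encodes a transcription factor activated by growth factor and cytokine receptors, fell from 349 and 318 CPM to 176 and 158 CPM in female WT cultures (log2 fold change -0.999, SE 0.15, edgeR adjusted p = 0.000257). Ptpn11, encoding the phosphatase SHP2, and Map2k2, encoding the ERK kinase MEK2, rose by 0.39 and 0.47 on the log2 scale. None of these 3 genes was called in female KO cultures.

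The feedback inhibitors of the pathway changed in both directions. Of 18 genes, 9 rose and 5 fell with HDM in female WT cultures (median log2 fold change 0.32), and 2 rose and 2 fell in female KO cultures (median 0.20). The shares of all tested genes called in these comparisons, here and for the other lists, were 43.1% and 10.4%. Errfi1, whose product binds and inhibits the EGF receptor kinase, read 41.0 and 45.2 CPM in naive and 128.4 and 162 CPM in HDM-treated female WT libraries (log2 fold change 1.75, SE 0.20, edgeR adjusted p = 4e-05), and rose by 0.81 in female KO cultures (edgeR adjusted p = 0.0225). Lrig1, encoding a membrane protein that promotes degradation of the receptors, read 429 and 373 CPM in naive and 90.5 and 112 CPM in HDM-treated female WT libraries (log2 fold change -1.99, SE 0.13, edgeR adjusted p = 9.13e-07), with a log2 fold change of -0.90 in female KO cultures (edgeR adjusted p = 0.0017). Spred3, of a family that restrains Ras-ERK signalling, rose by 1.87 in female WT cultures (edgeR adjusted p = 0.000157) and was not called in female KO cultures.

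Of 18 transcripts known to be induced by ERK signalling, 8 rose and 1 fell in female WT cultures and 2 rose in female KO cultures. Ereg and Hbegf are among these 18. Without them 7 of 16 were called in female WT cultures, 6 higher and 1 lower, with a median log2 fold change of 0.78. In female KO cultures 2 of those 16 were called. Counted in either direction, these were close to the shares of all tested genes called, 43.1% in female WT and 10.4% in female KO cultures. By direction they were not, as 20.6% of all tested genes were higher and 22.4% lower in female WT cultures. Phlda1 rose from 85.4 and 101 CPM to 303 and 340 CPM in female WT cultures (log2 fold change 1.79, SE 0.23, edgeR adjusted p = 9.32e-05) and by 0.94 in female KO cultures (edgeR adjusted p = 0.0207). Klf6, which encodes a zinc finger transcription factor, rose by 1.13 and 0.66 in the 2 genotypes (edgeR adjusted p = 8.28e-05 and 0.0122). Ccnd1, the cyclin D1 gene, rose by 0.58 in female WT cultures (edgeR adjusted p = 0.00168) and not detectably in female KO cultures (log2 fold change 0.03). No gene of these lists was called in male cultures.

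**Figure D5:**
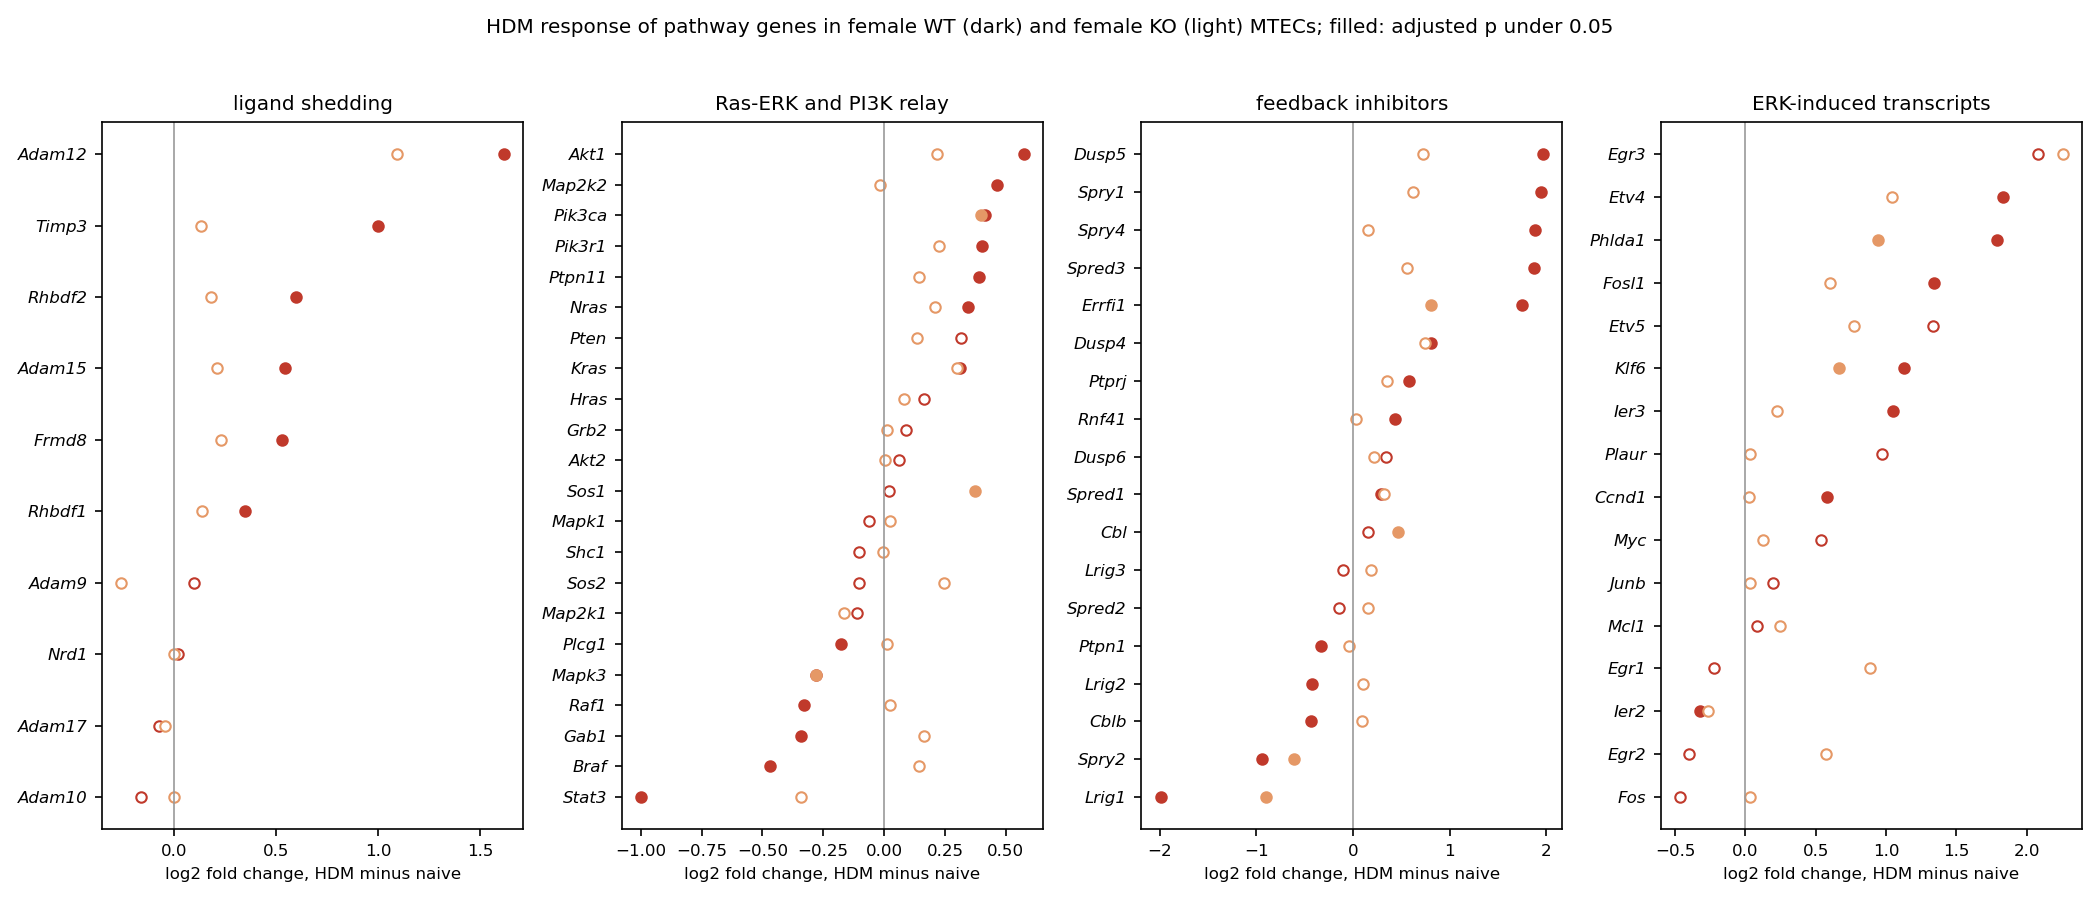
Log2 fold change, HDM minus naive, of the genes for ligand shedding, the Ras-ERK and PI3K relay, feedback inhibitors and ERK-induced transcripts (Ereg and Hbegf left out) in female WT (dark) and female KO (light) cultures. Filled points have an edgeR adjusted p under 0.05. Lrig1 lies furthest to the left, at -1.99 and -0.90, and each panel has its own scale.

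The genes whose levels ran most alike to each of the 10 across the 16 libraries were found by Pearson's r of log2(CPM + 1), given as a description because all points share libraries and depth. For Erbb2 these were Thra, Prkab1 and P2ry2 (r = 0.985, 0.984 and 0.983), and for Erbb3 Arhgap32, Dnmbp and Exph5 (r = 0.98, 0.972 and 0.97). Areg ran with Igsf9, Myc and Itpripl1 (r = 0.966, 0.965 and 0.964), Ereg with Fam167a, Fosl1 and Sh2d5 (r = 0.976, 0.968 and 0.963) and Hbegf with Tgif1, Itgb6 and Snrpa1 (r = 0.981, 0.973 and 0.972). Tgfa ran with Klf11, Trib1 and Fam102b (r = 0.966, 0.965 and 0.965), and Nrg1 with Dusp4, Etv4 and Mast2 (r = 0.97, 0.964 and 0.958). The likeness was lower for Egfr, led by Sertad2, Sc5d and 4930402H24Rik (r = 0.909, 0.89 and 0.887), and for Btc, led by Gm43566, Nipal2 and Ptger4 (r = 0.906, 0.904 and 0.903). For Epgn, at its low counts, they were Rsu1, Eci2 and Stx16 (r = 0.958, 0.95 and 0.946).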

How the data were processed

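RNA of MTECs, naive or HDM-treated, from mice of both sexes and genotypes was sequenced as 16 libraries. The deposited table holds raw read counts per gene (Ensembl ids) that the authors made from their reads. The submitters' processing notes name Trimmomatic 0.36, STAR 2.5.2b, featureCounts from Subread 1.5.2, DESeq2 and the build GRCm38. The annotation release, the strand setting and any filter are not given in the sources used here. Total counts per library were 21860698 to 43442188, and of the 10 genes only Epgn had 20 or fewer counts in any library.

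Symbols and coordinates came from GENCODE M21 (GRCm38), which matched 49056 of the 49315 ids, and the 259 others held 0.0106% of counts. Groups came from the sample titles, and the 8 column names without a replicate number, 1 per group, were taken as replicate 1. In edgeR 4.0.16 (R 4.3.3), genes were kept by filterByExpr over the 8 groups, scaled by TMM and fitted by quasi-likelihood with 8 group means over all 16 libraries (common biological coefficient of variation 0.142). P-values are two-sided and Benjamini-Hochberg adjusted over all 15993 tested genes in each of 17 contrasts. The design has 2 libraries per group, so p-values measure the spread between cultures of pooled tracheas and not between single animals. The main fit took the 16 libraries as independent, with no term for cultures from a shared pool. SEs are log2 fold change over the root of the quasi-likelihood F. Levels between genes were divided by the length of all annotated exons of each gene, not of the transcripts expressed.

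Alternatives were DESeq2 1.42.0, upper-quartile scaling, library size only, no low-count filter, a minimum of 10 counts per library, a fit of only those libraries that enter a comparison, a replicate block over all groups or within each sex and genotype, and leaving out each library. The test was tried on simulated counts of independent libraries. Changes were planted in female WT HDM only, in far fewer genes than were called there, and no call rests on that trial. The 10 genes, the lists and the tests were chosen with earlier results of these data known. From each pathway list the 3 called genes with the smallest p in female WT HDM minus naive were named, with all remaining family genes, and for each of the 10 the 3 genes of highest Pearson r with a pseudocount of 1 CPM. RefSeq promoter windows ran up to 250 bases and ended before the annotated gene start.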

Additional observations from a re-analysis of the deposited data

Results flagged for a closer look

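The HDM response differed between groups by a direct test (an interaction term in edgeR's quasi-likelihood fit) in 5 results. In WT cultures the response of female minus that of male cultures was 0.38 for Egfr, -1.04 for Erbb2 and -0.69 for Erbb3 on the log2 scale (edgeR adjusted p = 0.0297, 0.00176 and 0.0156). In KO cultures it was 0.80 for Tgfa (edgeR adjusted p = 0.0432). In female cultures the response of KO minus that of WT was 0.62 for Erbb3 (edgeR adjusted p = 0.0451). Erbb2 kept its call when each of the 16 libraries was left out in turn and under all 8 other settings. The other 4 lost theirs in 2 to 13 of the 16 fits that left out 1 library. Among the 8 other settings the call was lost in 3 for Egfr, in 1 for each Erbb3 result and in 0 for Tgfa. Groups of 2 libraries are too small for a search for outlying samples.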

How the results depend on the processing

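Among the 28 calls of single genes in the comparisons, none changed direction, 22 kept their side of the threshold under all 8 other settings, and 8 did so also when each of the 16 libraries was left out. These 8 were Egfr, Erbb2, Erbb3 and Tgfa for HDM in female WT, and Erbb2 and Erbb3 between the sexes in WT HDM. Tgfa between the sexes in KO HDM and Erbb2 for the sex difference in the WT response completed them. All except Tgfa in KO HDM used the same female WT HDM libraries, so they were not independent of one another. With each library left out, the number of the 10 genes called ranged from 4 to 9 for HDM in female WT, 0 to 3 in female KO, 2 to 6 and 1 to 5 between the sexes in WT HDM and KO HDM, 0 to 2 for KO minus WT in female HDM, 1 to 5 and 0 to 1 for the sex difference in the WT and KO response, 0 to 2 for the genotype difference in the female response and 4 to 9 for any difference. A group left with 1 library was assumed to vary like the others.

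With no filter on low counts, the number called was 7 (from 3) for HDM in female KO, 3 (from 0) in male KO, 2 (from 0) between the sexes in WT naive and in KO naive, 5 (from 2 and 0) for KO minus WT in female HDM and male HDM, 6 (from 3) and 5 (from 1) for the sex difference in the WT and KO response, and 4 (from 1) and 2 (from 0) for the genotype difference in the female and male response. With only the libraries compared it was 6 for HDM in female KO, 5 for KO minus WT in female HDM, 1 for the sex difference in the WT response and 0 for the genotype difference in the female response. DESeq2 called 1 between the sexes in WT naive, beside 204 genes in all. With no filter, counts over all genes rose in each comparison named. In the order given they were 2717, 705, 644, 859, 5149, 1896, 4454, 1977, 3029 and 668. The main fit had 1664, 0, 16, 30, 4669, 0, 3866, 569, 1798 and 0. With only the libraries compared, the all-gene counts were 2804, 3627, 2602 and 1910, in that order. The cause was not tested.

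Same-numbered libraries were not shown to be paired: the correlation of their deviations between naive and HDM cultures was 0.437 in male WT, 0.286 in female WT, -0.144 in male KO and -0.0511 in female KO. With a replicate block within each sex and genotype, the number called was 5 for HDM in female KO, 4 for KO minus WT in female HDM, 7 and 2 for the sex difference in the WT and KO response and 4 for the genotype difference in the female response. Under the block within sex and genotype, counts over all tested genes were 2150, 5246, 4429, 1062 and 2441, in the same order. The main fit gave 1664, 4669, 3866, 569 and 1798 of the 15993 tested genes. A replicate block over all groups left every count within 1.5 times its value.

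Counts over all genes also moved. HDM in male WT and male KO called 0 genes, 2 and 1 with DESeq2 and 149 and 705 with no filter. Sex in WT naive called 16 genes, 204 with DESeq2, 644 with no filter, 10 with at least 10 counts per library, 9 with the block within sex and genotype and 5 with only the libraries compared, and in KO naive 30, 216, 859, 29 with that minimum, 91 and 9. KO minus WT in female and male naive called 0, 1 and 1 with DESeq2 and 135 and 98 with no filter, and the genotype difference in the male response 0 and 668 with no filter. HDM in female KO called 1664 genes, 2717 with no filter and 2804 with only the libraries compared. Sex in WT HDM called 6657 and 3916 with only the libraries compared. KO minus WT in male HDM called 0, 562 with DESeq2 and 1896 with no filter. The sex difference in the KO response called 569, 1192 with DESeq2, 1977 with no filter and 1062 with the block within sex and genotype, and the genotype difference in the female response 1798 and 3029 with no filter. With scaling by library size only, the share of higher genes among those called moved in several comparisons. It went from 51.1% to 61.7% for KO minus WT in female HDM and from 47.9% to 38.6% for HDM in female WT. It went from 54.8% to 67.0% for the genotype difference in the female response. For the sex difference in the WT and KO response it went from 46.8% to 39.2% and from 50.3% to 41.5%. With a pseudocount of 4 CPM the genes most like Areg and Epgn changed in part, with Cenpt in place of Myc for Areg.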
